A study of Homo sapiens with 24 samples.

Results

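PCAT1, PCA3 and PCGEM1 are 3 long noncoding RNAs, transcripts that encode no known protein, named for their expression in prostate cancer. They were taken by symbol from gene count tables of 24 RNA sequencing libraries, and all 3 were found among 26346 genes. PCAT1 was the abundant member. It was read in every VCaP and LNCaP library, rose with the shRNA against ERG in VCaP, fell 45.3-fold with the shRNA against ARID1A, and fell with ERG but not detectably with ETV1 in LNCaP. PCA3 had at most 26 reads in any library and PCGEM1 at most 7.

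The libraries came from 3 human cell lines in 12 groups of 2. VCaP, a prostate cancer line whose own ERG gene is driven by a TMPRSS2 fusion, carried a control shRNA (shCt), shERG or shARID1A under puromycin selection for 8 days. LNCaP, an androgen-responsive prostate cancer line, carried an empty vector (Empty), ERG or ETV1 under blasticidin for 4 days. SW13, an adrenocortical carcinoma line, carried pairs of constructs under both drugs for 2 days: GFP, BRG1 or its ATPase mutant BRG1-K785R, each with Empty or ERG. ERG and ETV1 are ETS transcription factors, ARID1A is a subunit of the BAF chromatin remodeler, and BRG1 is a catalytic subunit of it. All cells, controls included, had been exposed to lentivirus for 48 h, and the 2 libraries of a group came from separate infections and cultures of 1 cell line. The sources used here do not say whether more than 1 hairpin per target was used, so each knockdown is read as a single shRNA group.

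The constructs were visible in the counts. Mean ERG levels were 342 CPM (reads of a gene per 1000000 counted reads) in VCaP shCt and 84.5 CPM in shERG, while ARID1A stood at 250 CPM in shCt and 73.6 CPM in shARID1A. In LNCaP, ERG rose from 0.448 to 977 CPM with the ERG construct, and ETV1, already at 579 CPM in Empty, stood at 3688 CPM with the ETV1 construct. Libraries held 19754265 to 41996681 counted reads. The 10 luminal prostate markers (KLK3 among them) summed to between 5809 and 15555 CPM in the VCaP and LNCaP libraries. In SW13 libraries, where all 10 were also read in some groups, they summed to between 27.5 and 214 CPM. The 6 adrenocortical markers summed to between 0.235 and 1.06 CPM in the SW13 libraries, with HSD3B2 and MC2R at 0 in all 6 groups. That was below LNCaP Empty, at 4.61 to 5.24 CPM.

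As background, PCAT1 lies in a gene-poor region near the MYC oncogene, is raised in a subset of prostate cancers, and has been described as a target of polycomb repression and as a repressor of BRCA2. PCA3 is transcribed antisense from within PRUNE2 and is measured in urine as a prostate cancer marker. PCGEM1 is an androgen-regulated prostate transcript with described roles in metabolism and MYC activity. In the GENCODE 29 annotation PCA3 is on chromosome 9 and PCGEM1 on chromosome 2, and all 3 are on the plus strand. PCA3 lies wholly within PRUNE2 on the opposite strand, and 9 of its 44 annotated exons overlap exons of PRUNE2. Of the 82 annotated PCAT1 exons, 11 overlap POU5F1B on the same strand and 3 overlap FAM84B on the opposite strand. The strand setting of the counting is not given in the sources used here, so reads from such overlapping exons cannot be told apart. The transcript lengths deposited for PCAT1, PCA3 and PCGEM1 were 1992, 3735 and 1590 bases.

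The promoter windows of PCA3 and PCGEM1, 250 bases before to 50 bases after the start in RefSeq (GRCh38.p14), are shown because the constructs act through ETS factors, whose core motif is GGAA. They lie at chr9:76764186-76764485 and chr2:192749595-192749894, plus strand, and capitals mark GGAA or its reverse complement TTCC. PCA3 has 2 entries in the table and the first is shown, and PCAT1 was not matched.
PCA3: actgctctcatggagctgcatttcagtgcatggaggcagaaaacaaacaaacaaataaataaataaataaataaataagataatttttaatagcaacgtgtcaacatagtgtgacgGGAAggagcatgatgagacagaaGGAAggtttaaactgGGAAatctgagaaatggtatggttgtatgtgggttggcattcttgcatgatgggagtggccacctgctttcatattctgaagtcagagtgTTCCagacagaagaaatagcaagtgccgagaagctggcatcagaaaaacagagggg
PCGEM1: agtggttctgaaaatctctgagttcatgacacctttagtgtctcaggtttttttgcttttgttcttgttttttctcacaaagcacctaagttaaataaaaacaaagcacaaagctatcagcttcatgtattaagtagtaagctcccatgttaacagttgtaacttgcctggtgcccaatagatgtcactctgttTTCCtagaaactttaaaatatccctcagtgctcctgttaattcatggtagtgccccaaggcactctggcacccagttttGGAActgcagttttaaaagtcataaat
The PCA3 window held 4 matches and the PCGEM1 window 2. Of 27305 RefSeq promoter windows of this length 95.5% held a match, with a median of 3 and with 4 or more in 46%, so neither count stood apart. Neither window held CCGGAA (in 17.6% of windows), the AP-1 motif TGANTCA (7.76%), the forkhead motif TGTTTAC (3.41%), the E-box CACGTG (7.43%) or the full palindromic androgen response element (0.00366%), all searched on both strands.

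PCAT1 levels separated the 3 VCaP groups. With shCt they were 24.1 and 26.3 CPM (617 and 687 reads), with shERG 63.9 and 63.7 CPM (1971 and 1646 reads), and with shARID1A 0.594 and 0.558 CPM (17 and 13 reads). No 2 of these groups overlapped. In LNCaP the levels were 44.2 and 42.7 CPM with Empty, 26.2 and 22.9 CPM with ERG, and 36.1 and 43.4 CPM with ETV1. The ERG libraries lay below all others of the line, and the ETV1 and Empty libraries overlapped. In SW13, 6 reads fell on PCAT1 in all 12 libraries together. They were 2 and 1 reads with BRG1 Empty and 1 read in the second library of BRG1-K785R Empty, BRG1-K785R ERG and BRG1 ERG, against 0 in the 4 GFP libraries.

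**Figure D1:**
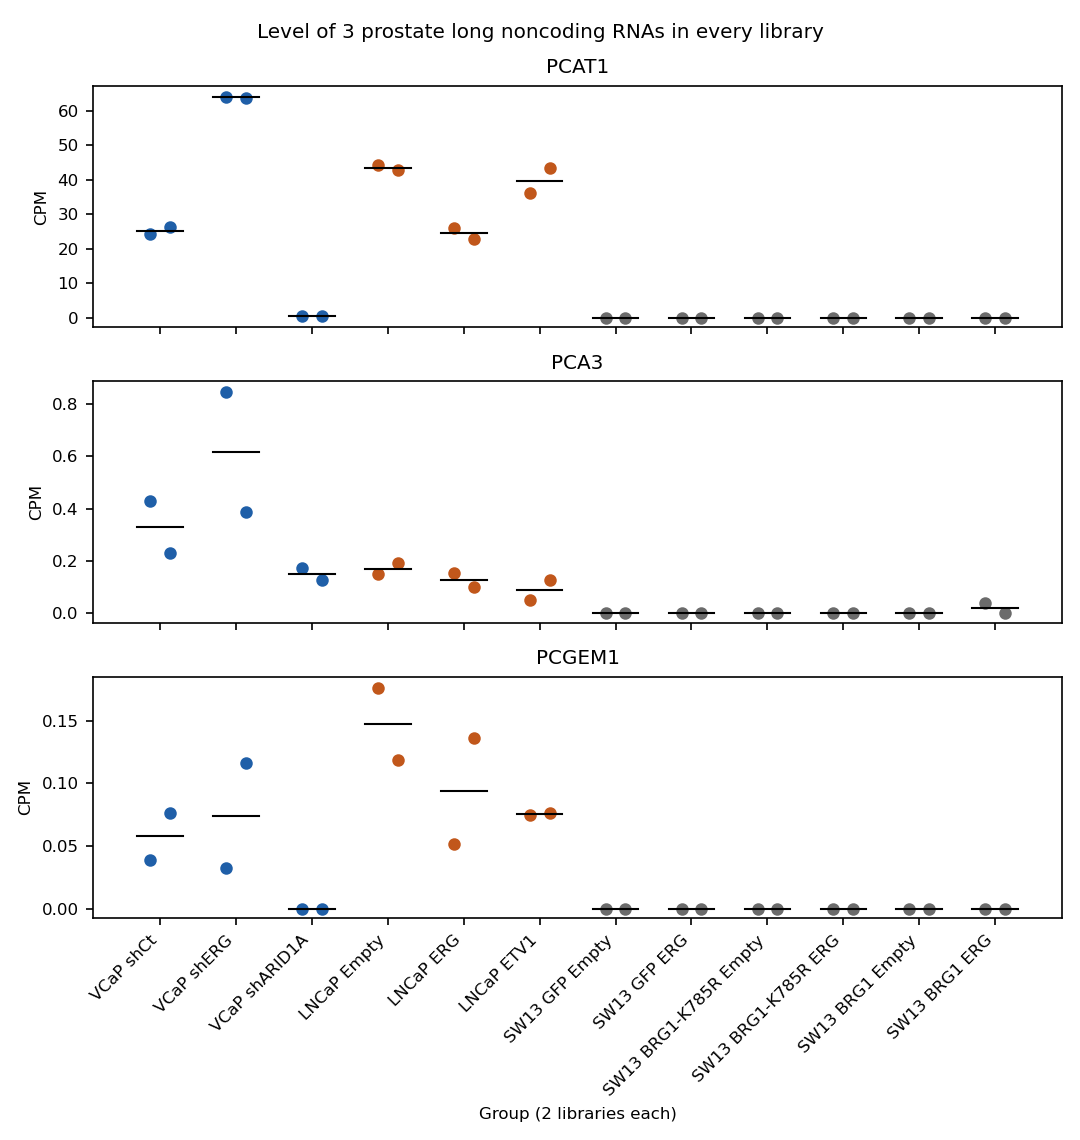
Level of PCAT1, PCA3 and PCGEM1 in CPM in each of the 24 libraries, by group; points are libraries, black lines group means, and the vertical scales differ between panels. PCAT1 is highest in VCaP shERG at 63.8 CPM and near 0 in VCaP shARID1A and in SW13, while PCA3 stays below 1 CPM and PCGEM1 below 0.2 CPM.

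PCA3 levels were low in both prostate lines. They were 0.431 and 0.229 CPM with VCaP shCt (11 and 6 reads), 0.843 and 0.387 CPM with shERG (26 and 10 reads), and 0.175 and 0.129 CPM with shARID1A (5 and 3 reads). The shERG and shCt libraries overlapped, and both shARID1A libraries lay below all others of VCaP. In LNCaP, PCA3 had 6 and 8 reads with Empty, 6 and 3 with ERG and 2 and 5 with ETV1, or 0.0501 to 0.19 CPM, with all groups overlapping at least 1 other. A single SW13 library, of BRG1 ERG, held 1 PCA3 read. PCGEM1 had 1 and 2 reads with VCaP shCt, 1 and 3 with shERG and 0 and 0 with shARID1A. It had 7 and 5 reads with LNCaP Empty, 2 and 4 with ERG and 3 and 3 with ETV1. PCGEM1 was at 0 in all 12 SW13 libraries, where 3 reads would correspond to 0.113 to 0.152 CPM.

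Levels between genes were compared per length, in RPKM (CPM divided by transcript length in kilobases), the authors' deposited unit. In VCaP shCt the order was PCAT1 at 12.7 ± 0.753, PCA3 at 0.0883 ± 0.0381 and PCGEM1 at 0.0364 ± 0.0166 RPKM (mean ± SD, n = 2), and the PCA3 libraries at 0.115 and 0.0614 lay above those of PCGEM1 at 0.0246 and 0.0481. In LNCaP Empty it was PCAT1 at 21.8 ± 0.523, PCGEM1 at 0.0929 ± 0.0255 and PCA3 at 0.0457 ± 0.00745 RPKM, and PCGEM1 lay above PCA3 in both libraries. These orders rest on a handful of reads for the last 2 RNAs. Among 29 prostate long noncoding RNAs with a row in the files, PCAT1 ranked 7th in VCaP shCt and 4th in LNCaP Empty. The RNAs above it in LNCaP were GAS5, NEAT1 and MALAT1, which are expressed in most tissues. PCA3 ranked 25th and 23rd, and PCGEM1 27th and 22nd.

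**Figure D2:**
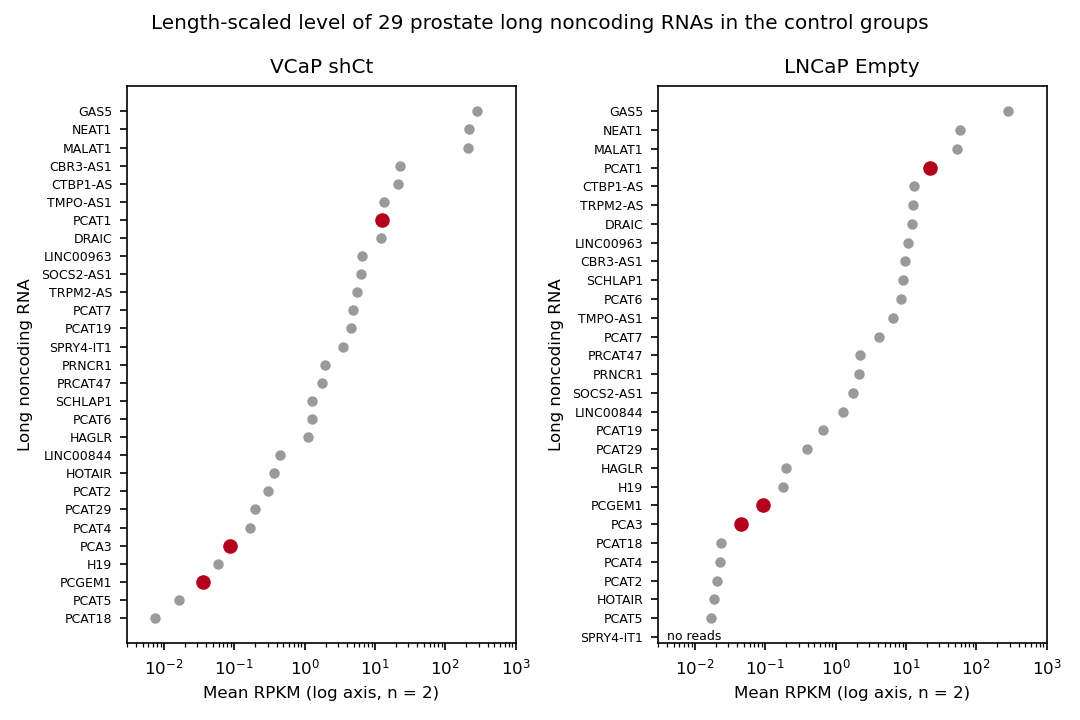
Mean RPKM on a log axis (n = 2 libraries) of 29 prostate long noncoding RNAs, ordered from highest to lowest in VCaP shCt and in LNCaP Empty, with PCAT1, PCA3 and PCGEM1 as large red points. PCAT1 stands 7th at 12.7 RPKM and 4th at 21.8 RPKM, and the other large points lie below 0.1 RPKM.

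Differences below are on the log2 scale and were tested in edgeR (two-sided quasi-likelihood F test), with all groups of a line in 1 fit and Benjamini-Hochberg adjustment over all genes tested, called at an adjusted p under 0.05. They carry an approximate standard error. PCAT1 passed the filter on low counts in VCaP and LNCaP and in the fit over all lines, PCA3 in VCaP and in the fit over all lines, and PCGEM1 in no fit. In SW13 no member passed, so none of the comparisons among BRG1, BRG1-K785R, GFP and ERG gave a test.

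PCAT1 rose 2.23-fold with shERG in VCaP, by 1.16 ± 0.07 on the log2 scale (adjusted p = 1.42e-12). In this comparison 66.7% of 16791 genes were called, 29.3% higher and 37.4% lower, so the call alone was common, and 906 genes had a higher log2 difference. With library totals in place of the fit's TMM scaling the PCAT1 difference was 1.34. That scaling moved the median of all genes by 0.183 and the share of calls that were higher from 43.9% to 60.5%.

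PCAT1 fell 45.3-fold with shARID1A, with a log2 difference of -5.50 ± 0.15 (adjusted p = 2.62e-18). Here 66.1% of genes were called, 32.9% higher and 33.2% lower, and 7 of 16791 genes had a lower log2 difference. Between the knockdowns, which were compared directly, PCAT1 was 101-fold lower with shARID1A than with shERG (log2 difference -6.66 ± 0.13, adjusted p = 3.31e-21), where 73% of genes were called and 36.2% lower. Of all genes, 8 had a lower log2 difference there. With library totals as the scale the share of calls that were higher in that comparison was 42.4% against 50.4%, and the PCAT1 difference was -6.78.

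In LNCaP, PCAT1 fell 1.76-fold with ERG, with a log2 difference of -0.81 ± 0.10 (adjusted p = 0.000384), against 29.7% of 16993 genes called, 15.4% higher and 14.3% lower. With ETV1 the difference was -0.092 ± 0.092 (adjusted p = 0.513), with an approximate 95% interval of -0.27 to 0.088, and without the first ETV1 library it was 0.038, so its sign was not fixed. In that comparison 26.1% of genes were called, 13.2% higher and 12.9% lower. The direct comparison of ERG with ETV1 gave a log2 difference of -0.72 ± 0.10 (adjusted p = 0.00167), where 14.4% of genes were called and 6.5% lower. With library totals as the scale, the share of calls that were higher was 40% against 50.5% for ETV1 and 64.8% against 54.8% for ERG against ETV1. ERG and ETV1 share the Empty libraries as their control, as the VCaP knockdowns share shCt.

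ERG and PCAT1 levels can be set side by side within each prostate line. PCAT1 was at 63.8 CPM where VCaP ERG was lowest, at 84.5 CPM, and at 25.2 CPM where ERG was at 342 CPM. In LNCaP it was at 43.5 CPM with ERG at 0.448 CPM and at 24.5 CPM with ERG at 977 CPM. LNCaP ETV1 held 1.07 CPM of ERG and 39.7 CPM of PCAT1. VCaP shARID1A held 240 CPM of ERG and 0.576 CPM of PCAT1, and was below shCt in both. Across the lines there was no such order: VCaP shERG had more ERG and more PCAT1 than LNCaP Empty. A link between these levels was not tested.

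Between the control groups, PCAT1 was lower in VCaP shCt than in LNCaP Empty, with a log2 difference of -0.70 ± 0.10 (adjusted p = 4.28e-07, where 77.7% of 18999 genes were called). Compared with SW13 GFP Empty, where it had no reads, PCAT1 was at least 201-fold higher in VCaP shCt and at least 346-fold higher in LNCaP Empty, with 3 reads per library as the floor. Both differences were called, as were 80.7% and 79.3% of genes in those comparisons. The lines differ in tissue, vector, drug and days of selection, which cannot be told apart.

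PCA3 was called in 1 comparison within a line. It was 3.70-fold lower with shARID1A than with shERG (log2 difference -1.89 ± 0.61, adjusted p = 0.00823), on 8 reads against 36. PCA3 passed the filter on low counts through shERG and shCt libraries, where it was higher, and not through those of shARID1A. The call was lost without the first shERG library (-1.25, adjusted p = 0.194), without the second shARID1A library (adjusted p = 0.061) and with DESeq2 (adjusted p = 0.0531). Against shCt, PCA3 differed by 0.75 ± 0.52 with shERG (adjusted p = 0.208) and by -1.14 ± 0.70 with shARID1A (adjusted p = 0.158). In LNCaP, where PCA3 was not tested, the ratio of reads per total was 0.771 for ERG over Empty, with an exact 95% counting interval of 0.295 to 1.91. For ETV1 over Empty it was 0.516, with an interval of 0.176 to 1.37. PCA3 did not differ detectably between VCaP shCt and LNCaP Empty (1.00 ± 0.64, adjusted p = 0.156). Against SW13 GFP Empty, which had no PCA3 reads, it was called in both lines, and was at least 2.63-fold and 1.36-fold higher. PCA3 passed the filter of that fit through VCaP libraries alone, as it reached at most 0.19 CPM in LNCaP. These calls therefore describe its levels and give no further support.

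PCGEM1 differences were not detectable at this depth. The ratio of reads per total in VCaP was 1.22 for shERG over shCt, on 4 and 3 reads, with an exact 95% counting interval of 0.206 to 8.31. With 0 reads in shARID1A against 3 in shCt, the interval reached up to 2.41. In LNCaP the ratio was 0.600 for ERG over Empty (0.185 to 1.73) and 0.516 for ETV1 over Empty (0.159 to 1.49). These intervals cover counting error only, and sequencing reads without molecular identifiers are not independent molecules.

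PCAT1 lies on chromosome 8, upstream of the oncogene MYC, which encodes a growth-promoting transcription factor. MYC moved with PCAT1 in some groups and not in others. With shARID1A, MYC fell from 230 and 254 CPM to 26.5 and 25.1 CPM, a 9.82-fold fall (log2 difference -3.30 ± 0.06, adjusted p = 3.97e-20), beside 45.3-fold for PCAT1. With shERG, MYC was at 226 and 244 CPM, and the libraries overlapped those of shCt. Its fitted difference of -0.23 ± 0.05 was called (adjusted p = 0.000652), but it was -0.044 and not called with library totals as the scale, and not called without the first shERG library. With ERG in LNCaP, MYC fell by 0.47 on the log2 scale (standard error 0.08, adjusted p = 0.00302), from 437 and 463 to 354 and 293 CPM. With ETV1 the MYC difference was -0.092 ± 0.081 (adjusted p = 0.452).

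The ratio of the 2 RNAs per length shows the same values from another side. PCAT1 RPKM was 12.5% and 12.3% of MYC RPKM in the VCaP shCt libraries, 33.6% and 31.0% with shERG and 2.66% and 2.64% with shARID1A. In LNCaP it was 12.01% and 10.95% with Empty, 8.77% and 9.28% with ERG and 10.7% and 12.2% with ETV1. The VCaP groups did not overlap, and in LNCaP the ERG libraries lay below the others. In SW13, MYC was at 51.5 to 176 CPM in all 12 libraries while PCAT1 had 0 to 2 reads.

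Of the other genes around PCAT1, none of those named here matched its fall with shARID1A. PVT1, a long noncoding RNA next to MYC, fell by 1.07 on the log2 scale with shARID1A (adjusted p = 4.92e-08), and differed by 0.14 with shERG (adjusted p = 0.225; 0.33 and called with library totals as the scale). PRNCR1, a prostate long noncoding RNA between PCAT1 and MYC, moved against PCAT1 in VCaP. It fell by 0.46 with shERG (adjusted p = 1.68e-05) and rose by 0.37 with shARID1A (adjusted p = 0.000144). FAM84B, the coding gene on the other side, fell by 0.61 and 0.23 in the same order (adjusted p = 3.86e-10 and 0.000317). CASC11, a transcript beside MYC, fell by 1.27 and 1.42 at under 1 CPM, calls that DESeq2 did not make. TRIB1, a pseudokinase gene farther upstream, fell by 0.63 with shARID1A (adjusted p = 1.79e-09). POU5F1B, which shares exons with PCAT1 in the annotation, fell by 1.70 with shERG (adjusted p = 1.78e-05) and differed by -0.17 with shARID1A (adjusted p = 0.561). In LNCaP with ERG, PRNCR1 and CASC11 fell by 0.30 and 0.84 (adjusted p = 0.0101 and 0.0184), and both calls were lost without either Empty library. With ETV1, TRIB1 rose by 0.37 and PRNCR1 fell by 0.24 (adjusted p = 0.00624 and 0.026), calls that also ended without the first Empty library. PVT1 differed by 0.23 with ETV1 (adjusted p = 0.0471), a call lost in 8 of the alternatives.

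**Figure D3:**
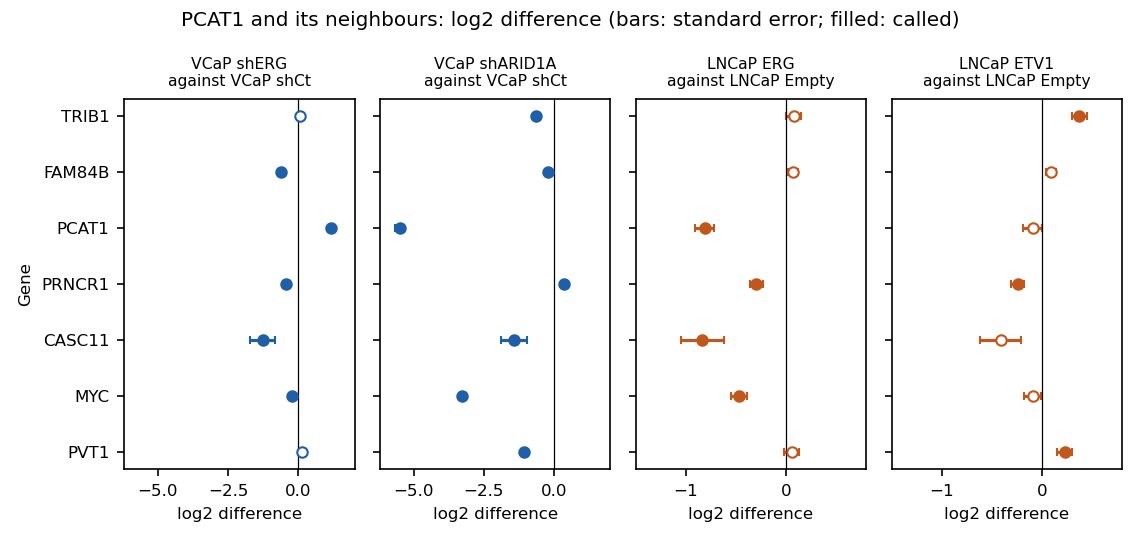
Log2 difference with its approximate standard error for PCAT1 and 6 genes around it, from top to bottom in their order along chromosome 8, in 4 comparisons; filled points were called at an adjusted p under 0.05, and the VCaP and LNCaP axes differ. PCAT1 is to the right of 0 with VCaP shERG at 1.16, where MYC is at -0.23, and farthest to the left with shARID1A at -5.50, where MYC is at -3.30.

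PRUNE2, the coding gene around PCA3, was far above it in level. It was at 297 and 274 CPM with VCaP shCt, 161 and 165 CPM with shERG and 132 and 127 CPM with shARID1A. It fell by 0.99 ± 0.05 with shERG and by 1.21 ± 0.05 with shARID1A (adjusted p = 1.36e-13 and 4.28e-15). In LNCaP it was at 125 and 126 CPM with Empty, 141 and 155 CPM with ERG and 162 and 158 CPM with ETV1, with log2 differences of 0.24 (adjusted p = 0.00931, lost without either Empty library) and 0.38 (adjusted p = 0.0011). In SW13, PRUNE2 had 22 reads in 12 libraries, so the host gene was near absent where PCA3 was. GCNT1, a glycosyltransferase gene nearby, fell by 1.48 with shERG and by 0.45 with shARID1A, and rose by 0.59 with ERG and 0.90 with ETV1 in LNCaP. Of 8 genes around PCA3, 7 fell and none rose with shERG, and 5 fell with shARID1A. Among all genes tested, 37.4% were called lower with shERG and 33.2% with shARID1A.

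TMEFF2, a membrane protein gene and the first coding neighbour of PCGEM1, followed the direction of PCAT1 in VCaP. It was at 86.5 and 95.7 CPM with shCt, 205 and 233 CPM with shERG and 18.8 and 16.3 CPM with shARID1A, with log2 differences of 1.08 ± 0.06 and -2.44 ± 0.08 (adjusted p = 1.61e-12 and 6.2e-17). In LNCaP it fell by 0.54 with ERG and by 1.30 with ETV1 (adjusted p = 0.00446 and 5.15e-05), from 216 and 218 CPM. With shERG 29.3% of all genes were called higher, and with shARID1A 33.2% were called lower and 32.9% higher. Of 6 tested genes around PCGEM1, 5 rose with shERG, and 2 fell and none rose with shARID1A (1 rose with library totals as the scale). The falls with shARID1A were thus near the share of all genes. PCGEM1 itself had too few reads to be set against its neighbours.

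**Figure D4:**
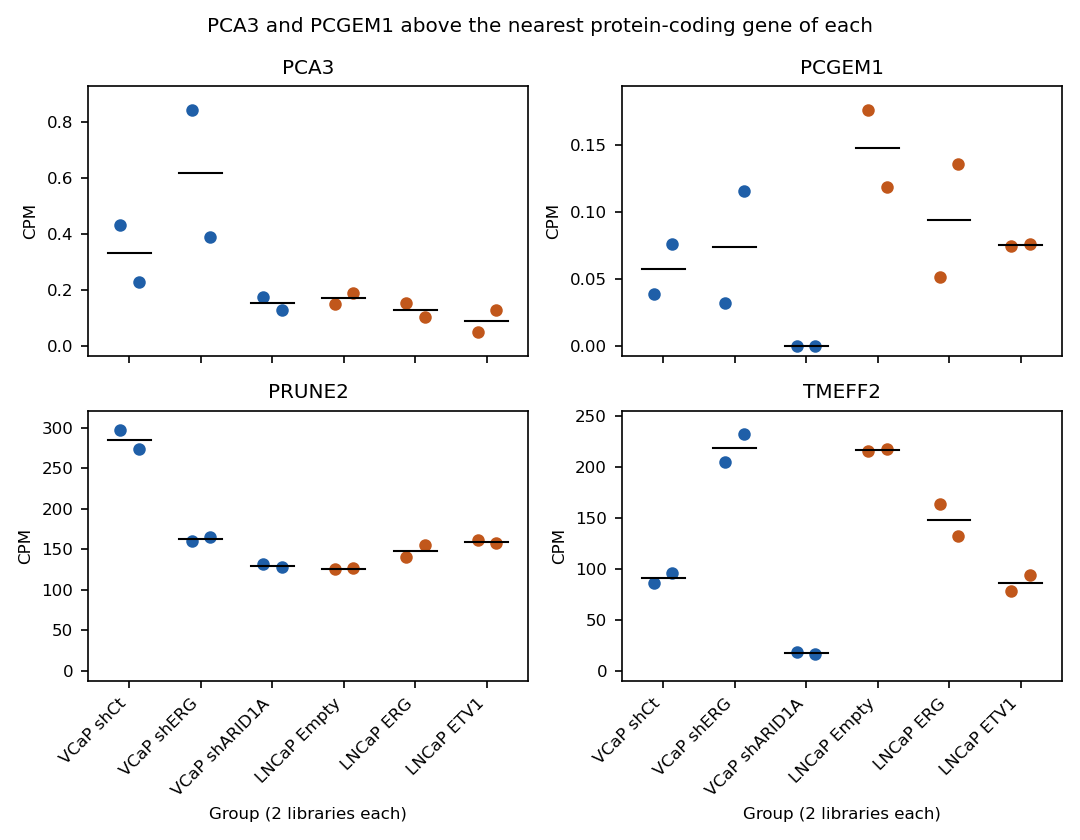
CPM in each VCaP and LNCaP library of PCA3 with PRUNE2 below it and of PCGEM1 with TMEFF2 below it; points are libraries and black lines group means, on separate vertical scales. PRUNE2 is highest in VCaP shCt at 286 CPM, TMEFF2 is highest in VCaP shERG and LNCaP Empty at 219 and 217 CPM, and the 2 long noncoding RNAs stay below 1 CPM.

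Profiles were compared over the 6 VCaP libraries by root mean square difference of centred log2 CPM, among 10474 genes averaging 5 CPM or more. These leave out names of LOC entries, clones and small RNAs, and those containing orf. To drop pseudogenes, every symbol ending in P or in P and digits was also left out, coding genes such as FKBP5 included. Of the genes searched, those most like PCAT1 were SI, LUM, CAMKV and BCHE. Their distances were 0.43, 0.60, 0.70 and 0.84. SI, which encodes an intestinal disaccharidase, was at 28.1, 99.1 and 1.41 CPM with shCt, shERG and shARID1A. LUM, which encodes the matrix proteoglycan lumican, was at 23.96, 58.3 and 1.39 CPM, and BCHE, the butyrylcholinesterase gene, at 4.20, 14.9 and 0.346 CPM. CAMKV fell with shARID1A and did not rise detectably with shERG (38.4, 41.1 and 1.11 CPM). LUM is also 1 of 5 stromal markers. Their summed level was 28.8 to 29.4 CPM with shCt, 79.3 to 80.9 CPM with shERG and 9.95 to 12.8 CPM with shARID1A, most of it LUM in shCt and shERG, and COL1A2 was at 0 in all 3 groups. With shARID1A the markers did not move together: LUM fell, while COL1A1, a collagen gene, rose from 4.82 to 9.91 CPM (log2 difference 0.96, adjusted p = 4.02e-06), and the third marker tested, DCN, was not called. The part of these markers in the PCAT1 result was not tested. In bulk libraries, fewer cells with an RNA and less RNA per cell cannot be told apart.

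In LNCaP the 4 most similar of 10239 genes left by the same rules were LINC00623, LINC00869, RAB36 and UPK3A. Their distances were 0.063 to 0.077. RAB36, a small GTPase gene, fell with ERG from 26.5 to 14.8 CPM, and UPK3A, a uroplakin gene, from 13.2 to 8.39 CPM. LINC00623 and LINC00869 may share reads, so their values are uncertain. For PCA3 in VCaP the 4 nearest of 10475 such genes were MZT1, TCTN1, STK26 and FLRT1, with distances of 0.28 to 0.32. With so few PCA3 reads its profile is loosely fixed.

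**Figure D5:**
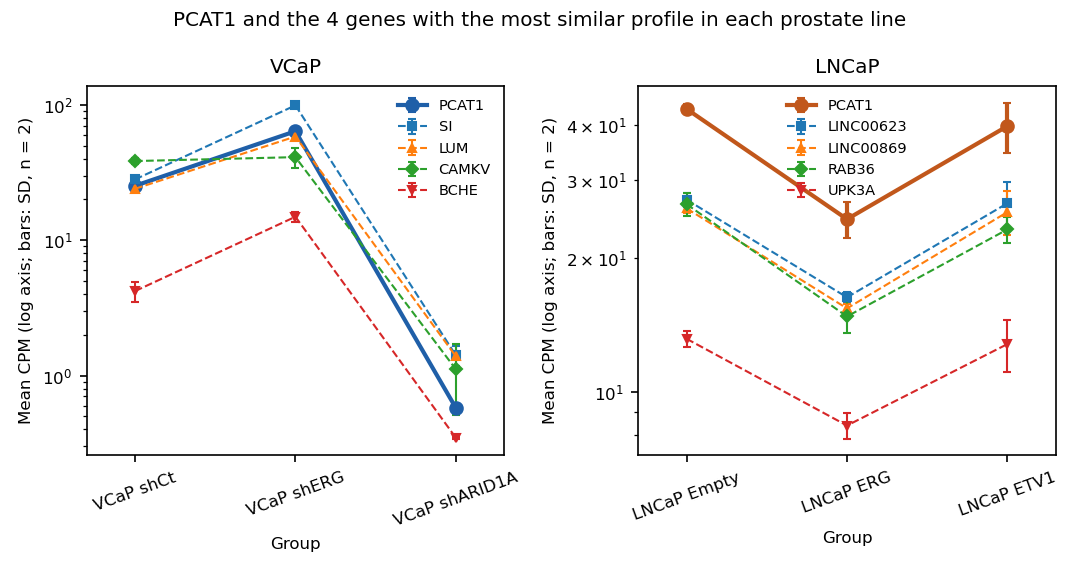
PCAT1 and its 4 most similar genes, of those searched, in VCaP and in LNCaP. Points are mean CPM by group on a log axis (bars: SD, n = 2). In VCaP all 5 are lowest with shARID1A (PCAT1 at 0.576 CPM), and in LNCaP all 5 are lowest with ERG (PCAT1 at 24.5 CPM).

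The other prostate long noncoding RNAs did not follow PCAT1 as a group. With shERG, where 29.3% of all genes were called higher and 37.4% lower, 3 of 21 tested rose, 12 fell and 6 were not called. The median log2 difference was -0.55 against -0.05 over all genes. With shARID1A, where 32.9% of all genes were called higher and 33.2% lower, 12 rose, 7 fell and 2 were not called. The median there was 0.37 against 0.01. PCAT1 thus stood on the other side of the list's median in both. MALAT1, an abundant nuclear RNA, fell by 0.62 and rose by 1.10 (adjusted p = 7.79e-09 and 4.58e-13), the reverse of PCAT1. PCAT4 rose with shERG by 2.69 (adjusted p = 5.09e-06) and PCAT19 fell by 1.51 (adjusted p = 4.64e-11), while GAS5, a growth arrest transcript, fell by 0.84 and 1.76 with the 2 knockdowns. In LNCaP, 5 rose, 4 fell and 12 were not called with ERG, and 5, 2 and 14 with ETV1. The shares of all genes called higher and lower there were 15.4% and 14.3% with ERG, and 13.2% and 12.9% with ETV1. PCAT19 rose by 2.04 with ERG (adjusted p = 4.93e-05), and LINC00963 and MALAT1 rose with both factors, by 0.95 and 0.70 with ERG.

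PCA3 and PCGEM1 are known as androgen-regulated, and 18 genes of androgen signalling were all tested. With shERG, 5 rose, 12 fell and 1 was not called, where 29.3% of all genes were called higher and 37.4% lower. KLK3, which encodes PSA, fell from 943 and 937 to 237 and 255 CPM (log2 difference -2.12 ± 0.05), the ETS factor SPDEF fell by 2.14 and the channel gene TRPM8 by 1.84. With shARID1A, 5 rose, 11 fell and 2 were not called, KLK3 by -1.39 and FOLH1, which encodes PSMA, by -1.44. There 32.9% of all genes were called higher and 33.2% lower. In LNCaP, 3 rose and 8 fell with ERG, and 1 rose and 11 fell with ETV1, among them SLC45A3 by 0.91 and PMEPA1 by 0.83. Of all genes, 14.3% were called lower with ERG and 12.9% with ETV1. PCAT1 rose with shERG while most of this list fell.

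Of the genes described as targets or regulators of PCAT1, BRCA2 and the centromere protein genes CENPE and CENPF, reported elsewhere to rise when PCAT1 is depleted, fell in both VCaP knockdowns. BRCA2 fell by 1.42 with shERG, where PCAT1 rose, and by 2.42 with shARID1A, where PCAT1 fell (adjusted p = 4e-10 and 4.14e-13). CENPE fell likewise, with log2 differences of -0.60 and -2.45, and CENPF with -0.96 and -2.84. In LNCaP none of the 3 was called with ERG or ETV1, but without the second ERG library CENPE and CENPF were called lower with ERG (-0.78 and -0.80). Of 12 homologous recombination genes, BRCA2 included, 10 fell and 2 rose with shERG, and 11 fell and 1 rose with shARID1A. The shares of all genes called lower were 37.4% and 33.2% in the same order. BRCA1 fell by 1.74 and 2.56, and RAD52 rose by 1.26 and 0.40. With LNCaP ERG, 1 of 12 was called lower (RAD51C, a call lost in 7 of the alternatives), and with ETV1, 5 of 12. There 14.3% and 12.9% of all genes were called lower.

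Polycomb repressive complex 2 genes were split. With shERG 4 of 11 rose and 6 fell, and with shARID1A 3 rose and 6 fell. The shares of all genes called higher and lower were 29.3% and 37.4% with shERG, and 32.9% and 33.2% with shARID1A. EZH2, the catalytic subunit, fell by 0.83 with shERG and by 2.01 with shARID1A (adjusted p = 5.24e-09 and 1.31e-14), from 33.7 and 34.3 CPM to 20.5 and 22.996 CPM and to 8.59 and 9.19 CPM. EZH2 RNA was lower in both groups, while PCAT1 was higher in the first and lower in the second. A part of polycomb repression in the PCAT1 levels was not tested.

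A list of 15 metabolic genes held genes of glycolysis, the pentose phosphate pathway and glutamine use, processes tied to PCGEM1 in earlier work, and the lipid synthesis genes FASN and ACLY. Of these 15 genes 14 fell with shERG, FASN and ACLY among them. With shARID1A 13 fell and 1 rose, where ACLY fell and FASN was not called. The shares of all genes called higher and lower were 29.3% and 37.4% with shERG, and 32.9% and 33.2% with shARID1A. GPI, a glycolytic isomerase gene, fell by 0.96 and 1.44, and TKT, a pentose phosphate gene, by 1.24 with shARID1A. In LNCaP, 5 rose and 1 fell with ERG and 9 rose and 2 fell with ETV1. There 15.4% of all genes were called higher and 14.3% lower with ERG, and 13.2% and 12.9% with ETV1. FASN, the fatty acid synthase gene, and ACLY, the ATP citrate lyase gene, were among the 5 that rose with ERG, by 1.12 and 0.41, and HK2, a hexokinase gene, rose by 0.75. The ADAR gene family, which includes RNA editing enzymes, is tied to the PCA3 and PRUNE2 pair. Of its genes, ADARB1 fell by 0.52 with shERG and rose by 0.78 with shARID1A. ADARB2 fell by 2.84 and 1.34, and ADAR rose by 0.15 with shERG. Editing itself was not measured. The gene lists were chosen with earlier results of these data known, and their counts are descriptions set beside the shares of all genes called that are given with each comparison above.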

How the data were processed

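RNA sequencing of polyA RNA was done in 24 libraries, 12 groups of 2, with 75 base single-end reads per the labels' protocols. For each library the authors deposited whole-number counts of reads for 26346 genes, beside lengths and RPKM. The deposited RPKM values equal the counts over length and library total. STAR 2.3.1 and hg19 are listed per the submitters' processing notes. Which program, gene models and strand option produced the counts is not given in the sources used here. No row lacked a gene name.

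Levels are CPM, counts scaled to a library total of 1000000. Tests used R 4.3.3 and edgeR 4.0.16: all groups of a line in 1 fit (all 24 libraries for comparisons between lines), TMM scaling, filterByExpr by group, the two-sided quasi-likelihood F test and Benjamini-Hochberg adjustment with a threshold of 0.05. That left 16791 (VCaP), 16993 (LNCaP), 17018 (SW13) and 18999 (all lines) genes. The approximate standard error is the log2 difference over the square root of F. Ratios of few reads carry exact 95% conditional binomial intervals. The fit of each line was first tested on simulated data, and the fit over all 24 libraries was not. Tables, intervals and figures used Python 3.11.15, pandas 2.3.3, numpy 2.4.6, scipy 1.17.1 and matplotlib 3.10.9.

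The 3 RNAs, the gene lists and the tests were chosen with earlier results of these data known. Named genes were the 3 RNAs, locus genes with at least 1 CPM in a group and the construct targets. Up to 4 called members of each list per comparison were also named, by smallest adjusted p. So were the 4 genes with the most similar profile (log2 CPM with a prior count of 2, mean of at least 5 CPM, symbols left out by name as given above). EZH2 with shERG, PCAT4, RAD52, COL1A1, DCN and, in VCaP, FASN and ACLY lie outside that rule and were chosen after their values were seen. Not every locus gene is described, and some genes that the rule names are not reported here. The libraries of a group differed by more than counting error (chi-square per degree of freedom 2.32 to 13.8), so none was counted once. Alternatives were RLE scaling, library totals as the scale, no filter, DESeq2 1.42.0, only the compared groups, the replicate number as a block and leaving out each library. Promoters came from RefSeq and exons from GENCODE 29. The SW13 control is called GFP, as in the titles, although the protocol speaks of luciferase.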

Additional observations from a re-analysis of the deposited data

How the results depend on the processing

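PCAT1 kept its direction and its side of the threshold under all alternatives in every comparison but LNCaP ETV1 against Empty. There, leaving out 1 library moved its log2 difference between -0.225 and 0.038, and it was not called in any. Its differences ranged from 1.11 to 1.34 for shERG, from -5.56 to -5.44 for shARID1A and from -0.92 to -0.72 for LNCaP ERG.

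PCA3 in shARID1A against shERG was not called with DESeq2 (-1.91, adjusted p = 0.0531), and leaving out 1 library moved it from -2.30 to -1.25, with adjusted p up to 0.194. PCA3 did not pass the filter in some fits with fewer groups, which gave no value. PCGEM1, and every member within SW13, gave no test, so no alternative applies there.

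The number of genes called moved by over 1.5 times only on leaving out libraries of LNCaP: between 2632 and 3873 of 5045 for ERG, 1987 and 3261 of 4439 for ETV1, and 1003 and 1638 of 2441 for ERG against ETV1, where fewer samples enter the fit. With the replicate block PCAT1 differed by 1.16, -5.50, -0.81 and -0.093 for shERG, shARID1A, LNCaP ERG and ETV1, and PCA3 by -1.88 between the knockdowns, with every call of the members kept. Replicate numbers did not pair the samples (correlation of deviations -0.0982 to 0.12). Of the other named genes, the block ended the calls of RAD51C with ERG and PVT1 with ETV1 in LNCaP. The gene lists, markers aside, were less stable. Their number of called members moved by over 1.5 times in 83 combinations of list, comparison and alternative, and stayed within that in 757.

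Signs of other named genes turned in a few cases, for TRIB1, CAMKV, ADAR, PVT1 and BRCA2, none of them called in the comparison as reported. Library totals as the scale gave 0.091 for CAMKV with shERG and 0.043 for ADAR with shARID1A. Leaving out 1 library moved TRIB1 with shERG between -0.019 and 0.198, CAMKV with shERG between -0.273 and 0.132, PVT1 with LNCaP ERG between -0.037 and 0.137 and BRCA2 with LNCaP ERG between -0.529 and 0.184. The cause was not tested.

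Depth limits PCA3 and PCGEM1: at 7 to 36 PCA3 reads per VCaP or LNCaP group a 2-fold change lies within the counting intervals in most comparisons, and PCGEM1 had 12 reads or fewer in any group.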
